A study of Homo sapiens with 2 samples.

Results

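The dual-specificity MAP kinase phosphatases are enzymes that switch off MAP kinases, and they were examined here in HT29 cells after silencing of GATA6. The members were given as a list of 10 gene symbols, DUSP1, DUSP2, DUSP4, DUSP5, DUSP6, DUSP7, DUSP8, DUSP9, DUSP10 and DUSP16. All 10 were found among the 14812 genes that could be named on the array, through 11 probe sets. HT29 is an established human colon adenocarcinoma line. Its cells received either control siRNA or GATA6 siRNA, and the total RNA of each transfection was hybridized to an Affymetrix array. GATA6 is a GATA family transcription factor that is active in the intestinal epithelium. The title of the control array says that it was reanalyzed, without stating what this involved, and every difference rests on this array. There was 1 array per condition, so no test between conditions and no p-value can be given. The labels do not say which of the study's GATA6 siRNAs was used, and they give no time between transfection and harvest. In such bulk RNA, fewer cells of a kind and less RNA per cell cannot be told apart.

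MAP kinases are activated when upstream kinases phosphorylate a threonine and a tyrosine in their activation loop, and the phosphatases of this family remove both phosphates. Many of their genes are themselves induced by MAP kinase signaling, which makes the family a negative feedback on the pathway. DUSP1, DUSP2, DUSP4 and DUSP5 are inducible nuclear enzymes, DUSP6, DUSP7 and DUSP9 are cytoplasmic enzymes that prefer ERK, and DUSP8, DUSP10 and DUSP16 act mainly on the stress kinases JNK and p38. In the gut epithelium the ERK pathway carries the growth signal of EGF family ligands.

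Each deposited value is centred on the median of its probe set over both arrays. The values therefore show how the arrays differ, but not whether a given member is expressed in HT29 cells. Differences are given on the log2 scale as the GATA6 siRNA value minus the control value. Genes past 1.4-fold, or 0.485 in log2 units, were counted as higher or lower, which extends to both directions the size that the methods of the study apply to decreases. The log base is not stated and was taken as 2. With natural logarithms DUSP1 would be 1.83-fold and DUSP6 1.66-fold higher, in place of the 1.52-fold and 1.42-fold given below. The only yardstick of error inside the arrays was the spread between 2 probe sets of the same gene. The SD of 1 probe set about the mean of its gene was 0.19, pooled over the 386 protein-coding genes that had 2. It is called the SD between probe sets below, and it does not include the error between cultures. The 95th percentile of the gap between such probe sets was 0.60, the size of the largest difference among the phosphatases.

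Promoter sequences of the members are shown because GATA6 is a DNA-binding factor and because DUSP1 is known as a target of CREB and ATF factors, which bind the cyclic AMP response element (CRE). Of the 10 members, 8 were matched to RefSeq promoters of GRCh38.p14, and DUSP4 and DUSP5 were not. The 250 bases before the start of the gene are printed 5′ to 3′ in lower case for DUSP1 and DUSP6, the members that were higher by over 1.4-fold, and for DUSP8, the other member with a CRE. Capitals mark the full CRE, TGACGTCA, which reads the same on both strands.
DUSP1, chr5:172771196-172771445, minus strand: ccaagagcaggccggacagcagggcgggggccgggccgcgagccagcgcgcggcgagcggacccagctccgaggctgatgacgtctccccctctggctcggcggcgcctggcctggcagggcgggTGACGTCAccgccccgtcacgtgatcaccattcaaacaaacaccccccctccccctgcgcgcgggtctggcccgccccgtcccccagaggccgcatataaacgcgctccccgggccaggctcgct
DUSP6, chr12:89352502-89352751, minus strand: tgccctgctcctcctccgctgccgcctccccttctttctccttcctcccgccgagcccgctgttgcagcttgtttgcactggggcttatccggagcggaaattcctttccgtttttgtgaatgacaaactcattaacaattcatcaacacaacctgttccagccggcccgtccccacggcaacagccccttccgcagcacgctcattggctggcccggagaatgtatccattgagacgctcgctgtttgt
DUSP8, chr11:1572272-1572521, minus strand: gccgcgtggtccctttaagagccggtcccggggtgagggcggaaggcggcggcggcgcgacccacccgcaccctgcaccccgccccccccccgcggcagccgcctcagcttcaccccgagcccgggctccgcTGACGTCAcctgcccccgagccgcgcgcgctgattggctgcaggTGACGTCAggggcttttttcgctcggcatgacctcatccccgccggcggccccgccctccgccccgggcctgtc

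The CRE of DUSP1 lay 125 to 118 bases before the start, and those of DUSP8 lay 118 to 111 and 74 to 67 bases before it. A full CRE was found in 2 of the 10 member promoters (DUSP9 and DUSP10 have 2 each), compared with 1.65% of all 35116 promoters of the same length. Because the CRE was chosen with DUSP1 known as a target, this count is no test of the family. DUSP1 also held the short form of the element (TGACG or CGTCA) at 172 to 168 and at 111 to 107 bases before the start, outside the full element. The short form was found in 2 of the 10 member promoters, again those of DUSP1 and DUSP8, and in 21.2% of all promoters, a similar share. The GATA motif, searched on both strands as AGATAA or AGATAG or TGATAA or TGATAG, was found in 0 of the 10 and in 22.3% of all promoters. The AP-1 site TGACTCA, the ETS site in the form CCGGAA and the CArG box of serum response factor were also in 0 of the 10. Searched in the same way, they were in 4.20%, 14.5% and 1.16% of all promoters. Other forms of the ETS site were not searched. The member promoters were rich in G and C, with a median of 74.6% against 58% for all promoters, and DUSP6 (57.2%) had 1 of the lower shares. They held a median of 25 CG pairs against 11 for all promoters. The full CRE contains such a pair, so all promoters are an unlike background for it. They are an unlike background for the GATA motif too, because its letters are mostly A and T. The count of 0 of the 10 therefore cannot decide whether the family lacks GATA sites more than other genes of like composition. Composition was not matched for any motif, and sequence farther before the start was not searched. A match is a description of these letters, and the CRE occurred both in DUSP1, which was higher, and in DUSP8, which had a difference of -0.12.

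GATA6 itself, the target of the siRNA, had a value of 0.58 in the control array and -0.58 in the GATA6 siRNA array, a 2.22-fold lower signal (log2 difference -1.15). Among the phosphatases, 2 of 10 were higher by over 1.4-fold, DUSP1 and DUSP6, and 0 were lower. Of all protein-coding genes named on the array, 3.95% were higher and 2.81% lower by this size, and of all named genes 3.44% and 2.5%. With 10 members, 1 array per condition and a list chosen with earlier results of these arrays known, these shares are given as a description. In all, 6 members were above 0 and 4 below, and the median was 0.07, compared with 0 over the 11911 protein-coding genes.

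**Figure D1:**
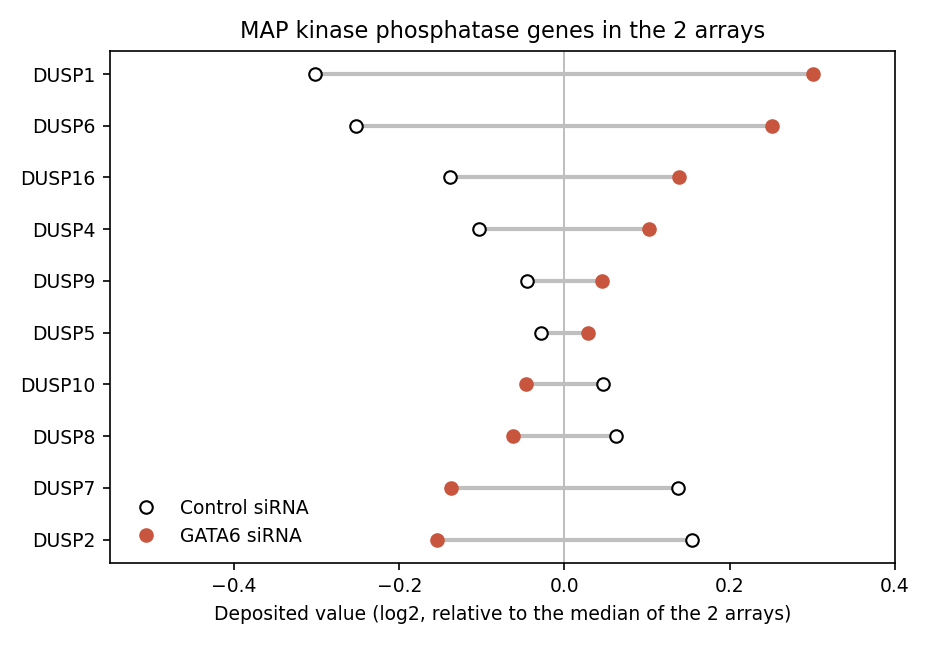
The deposited value of each phosphatase gene in the control siRNA array (open circles) and the GATA6 siRNA array (filled circles), on a log2 scale relative to the median of both arrays, with members ordered by their difference. DUSP1 is at -0.30 and 0.30 and DUSP6 at -0.25 and 0.25, while DUSP2 runs the other way, from 0.15 to -0.15; there is 1 array per condition and no error bar.

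The nuclear enzymes differed in both directions. DUSP1, an immediate-early gene whose product inactivates p38, JNK and ERK, had values of -0.30 in the control array and 0.30 in the GATA6 siRNA array. The difference of 0.60 was the largest of the family (1.52-fold higher, 3.10 times the SD between probe sets), and it ranked 269th among the increases of the 11911 protein-coding genes. DUSP2, a phosphatase best known from activated immune cells, had 0.15 in the control and -0.15 in the GATA6 siRNA array. Its difference of -0.31 was the lowest of the family, with a signal at 80.8% of that in the control, short of 1.4-fold. DUSP4, a nuclear enzyme of ERK and JNK, had -0.10 and 0.10, a difference of 0.21 that was close to the SD between probe sets. DUSP5, a nuclear enzyme specific for ERK, was the only member measured by more than 1 probe set. Its probe sets gave 0.07 and 0.04, a gap of 0.03, and their mean of 0.06 was within the SD. Over these 4 genes the median was 0.13, with 3 above 0 and 1 below.

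The cytoplasmic ERK phosphatases also lay on both sides of 0. DUSP6, the feedback phosphatase of ERK whose transcript is commonly used as a readout of ERK activity, had values of -0.25 in the control and 0.25 in the GATA6 siRNA array. Its difference of 0.50 was 1.42-fold and therefore only just past the 1.4-fold size, and it ranked 433rd among the increases of protein-coding genes. DUSP7, the closest relative of DUSP6 in substrate and location, had 0.14 and -0.14. Its difference of -0.28 thus had the opposite sign to that of DUSP6 but did not reach 1.4-fold. DUSP9, known from its role in placenta in mice, had -0.05 and 0.05, and its difference of 0.09 was within the SD between probe sets. The 3 genes had a median of 0.09.

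None of the 3 phosphatases of the stress kinases reached 1.4-fold. DUSP16, which acts on JNK, had -0.14 in the control and 0.14 in the GATA6 siRNA array, and the difference of 0.28 made it the nearest member after DUSP6 on the side of increases (1.21-fold). DUSP8 had 0.06 and -0.06 (difference -0.12). DUSP10, also a phosphatase of JNK and p38, had 0.05 and -0.05 (difference -0.09). Both lay within the SD between probe sets, so that their direction is not distinguishable on that yardstick. The median of the 3 was -0.09, the value of DUSP10, and it turned with this gene to 0.02 when the arrays were centred on ribosomal protein genes.

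Ordered from the highest to the lowest difference, the members ran DUSP1, DUSP6, DUSP16, DUSP4, DUSP9, DUSP5, DUSP10, DUSP8, DUSP7 and DUSP2. The 9 steps between neighbours were 0.03 to 0.23, and the widest was that from DUSP6 to DUSP16. A step carries the error of both its genes, so the SD of 0.19 is too small a yardstick for it. All steps were below 0.60, the 95th percentile gap given above. Neighbours in an ordered list lie close by construction, so this yardstick cannot decide whether any were set apart. Each of the 3 classes held members on both sides of 0. In size regardless of direction, the members had a median of 0.24 against 0.10 for all protein-coding genes, and 6 of 10 exceeded the SD between probe sets, compared with 29.5% of protein-coding genes. Since the deposited values hold no levels, it is not known how many of the protein-coding genes with small differences were not expressed.

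**Figure D2:**
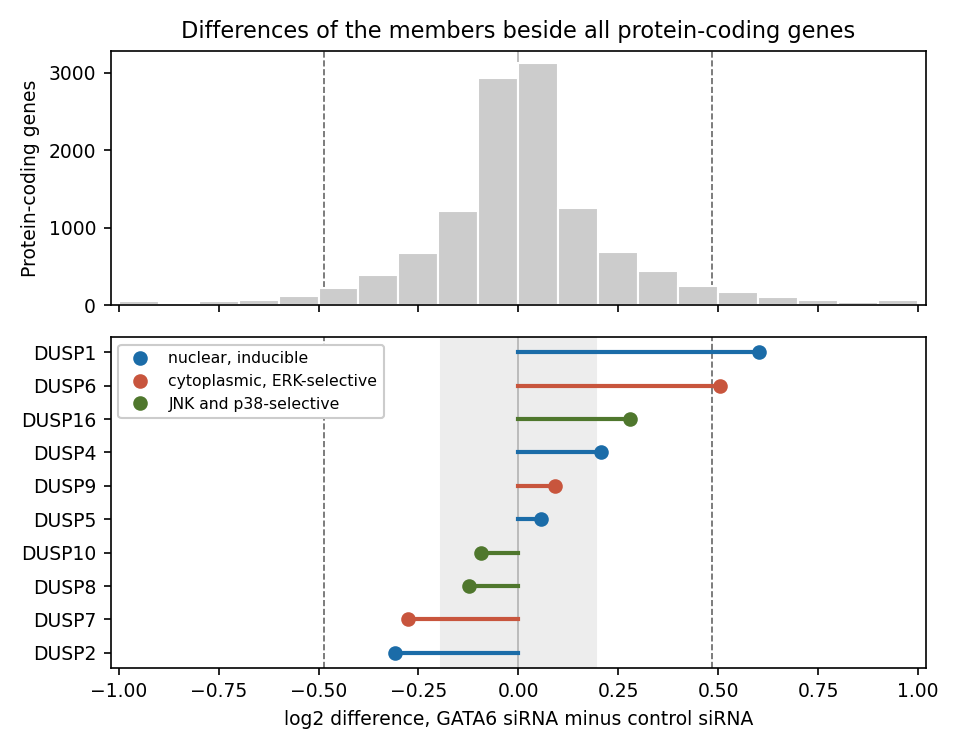
The upper panel counts the 11911 protein-coding genes by log2 difference (GATA6 siRNA minus control siRNA) in steps of 0.1, with genes beyond ±1 placed in the outermost bars. The lower panel shows the 10 phosphatases, coloured by class; dashed lines are at 1.4-fold, the grey band is the SD between probe sets of 1 gene (0.19), and only DUSP1 and DUSP6 lie past a dashed line.

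The call of DUSP6 depended on the scaling between the arrays. With quantile normalization its difference was 0.47, below the 1.4-fold size, while DUSP1 stayed above it at 0.56. The shares of protein-coding genes higher and lower were then 3.33% and 3.32%. This normalization was run on the deposited values, where both values of a probe set are equal in size and opposite in sign. Increases and decreases over all probe sets then get the same spread by construction, so the near-equal shares are no result. Centring on the ribosomal protein genes raised every difference by 0.11, and DUSP1 was then at 0.72, DUSP6 at 0.62 and DUSP16 at 0.39, and DUSP10 turned from -0.09 to 0.02. On that scale DUSP8 was at -0.01, DUSP7 at -0.16 and DUSP2 at -0.20, and 6.53% of protein-coding genes were higher and 1.60% lower by over 1.4-fold. DUSP2, DUSP7 and DUSP8 were below 0, and DUSP1, DUSP6, DUSP16, DUSP4, DUSP9 and DUSP5 above it, under all 3 scalings. The shift only raises differences, and quantile normalization of such opposite values keeps the sign, so the members above 0 could not turn. A constant shift leaves the order of the members as it is.

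**Figure D3:**
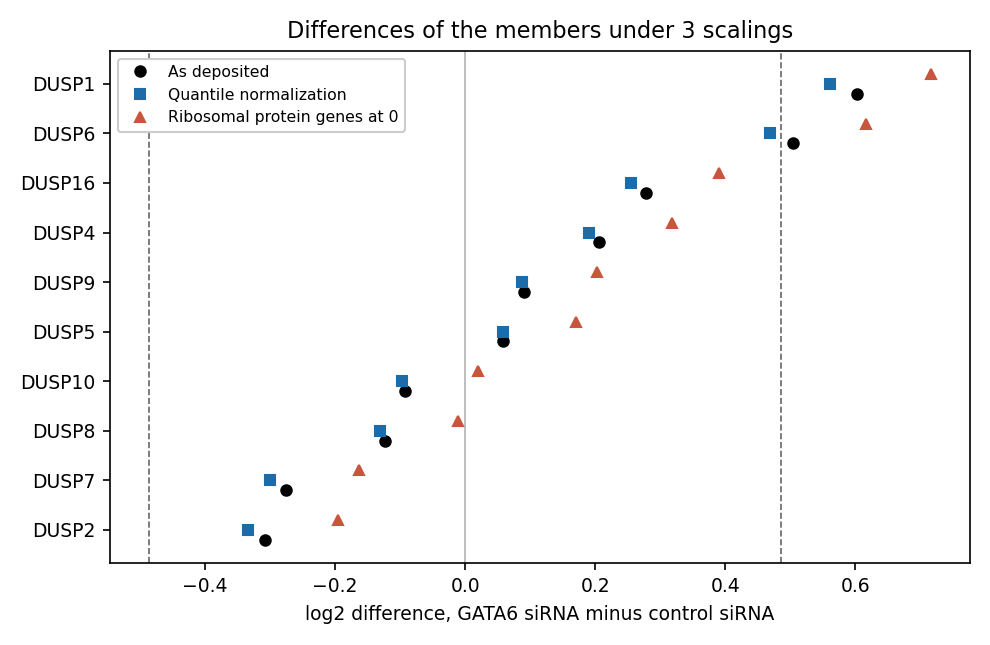
The log2 difference of each phosphatase (GATA6 siRNA minus control siRNA) as deposited (circles), after quantile normalization (squares) and with centring on ribosomal protein genes (triangles), with dashed lines at 1.4-fold. DUSP6 moves from 0.50 to 0.47 and 0.62 and so crosses the line, whereas DUSP1 is past it in each case.

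The atypical dual-specificity phosphatases, smaller relatives that mostly lack the MAP kinase docking domain, served as the nearest comparison. Of 20 listed, 17 were measured, 1 was higher and 0 lower by over 1.4-fold, and the median was -0.01, or 0.11 with centring on ribosomal protein genes. The exception was STYX, a catalytically inactive relative that binds ERK in the nucleus, with -0.45 in the control and 0.45 in the GATA6 siRNA array (1.86-fold higher). This difference of 0.89 exceeded that of every MAP kinase phosphatase. DUSP3, which acts on ERK and JNK, was the next with 0.37 (1.29-fold). DUSP29 (-0.18) and STYXL1 (0.16) followed in size.

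The MAP kinase family, which includes the kinases on which the phosphatases act, was examined in the same way. Of 14 MAP kinases, 11 were measured, 1 was higher and 0 lower by over 1.4-fold, and the median was 0.13. The 1 past the size was MAPK6, the atypical kinase ERK3, whose values were -0.40 and 0.40 (1.73-fold higher). MAPK3, which encodes ERK1 and is a substrate of DUSP6, had a difference of 0.41 and NLK, a kinase of the Wnt pathway, of 0.35. MAPK9, which encodes JNK2, had -0.30. Among the upstream activators 20 of 26 genes were measured, 4 were higher and 1 lower by over 1.4-fold, and the median was 0.08. The higher genes were the scaffold KSR1 (0.75), the MAP3 kinase MAP3K2 (0.72), the RAS exchange factor SOS2 (0.51) and MAP2K6 (0.49). MAP2K3, which like MAP2K6 activates p38, was lower (-0.56), so the p38 activators MAP2K3 and MAP2K6 lay on opposite sides of 0. With quantile normalization SOS2 and MAP2K6 no longer passed 1.4-fold, and with centring on ribosomal protein genes MAP2K3 did not.

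Of 15 listed feedback inhibitors that are not phosphatases 10 were measured, with 1 higher, 0 lower and a median of 0.07. ERRFI1, an inducible inhibitor of the EGF receptor, had -0.39 in the control and 0.39 in the GATA6 siRNA array (1.73-fold higher). SPRY3 (0.31), RASA2 (0.31) and NF1 (0.21), the latter pair RAS GTPase activators, did not reach the size. SPRY2 and SPRY4, sprouty inhibitors that ERK signaling induces like DUSP6, had differences of -0.20 and -0.05.

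Transcripts that ERK induces, as DUSP6 is, lay on both sides of 0. Of 27 listed genes 23 were measured, 0 were higher and 2 lower by over 1.4-fold, with 12 above 0, 9 below and a median of 0.01. MYC had 0.71 in the control and -0.71 in the GATA6 siRNA array (2.67-fold lower), and FOSL1, a component of AP-1, had 0.31 and -0.31 (1.53-fold lower). The ETS factors ETV5 and ETV4, which are read together with DUSP6 as output of the ERK pathway, had -0.38 and -0.22, and the ERK-induced ligand HBEGF had -0.30. By contrast MCL1, a survival factor, had 0.35, the immediate-early gene IER3 had 0.29 as the mean of 11 probe sets (-0.03 to 0.59), and KLF6 and KLF10, zinc finger factors, both had 0.29. Cyclin D1 (CCND1) had 0.05. SPRY2, SPRY4, ETV4, HBEGF, IER3, KLF6, KLF10 and CCND1 were named after their values had been seen.

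DUSP1 belongs to the immediate-early genes, and other genes of that kind were set beside it. In the list of stress kinase and immediate-early genes, 6 of 14 were measured and 0 passed 1.4-fold in either direction, although 4 were above 0 and the median was 0.22. JUNB had a difference of 0.45, JUND of 0.32, the chemokine CXCL8 of 0.32 and JUN of -0.22. With centring on ribosomal protein genes JUNB passed 1.4-fold, as did MAPK3 and MKNK2. FOS and EGR1, which are induced together with DUSP1 by growth factors, had -0.18 and 0.19, but their 2 probe sets disagreed, from -0.36 to 0.005 for FOS and from -0.04 to 0.41 for EGR1. Both were named after their values had been seen. Of the kinases downstream of MAP kinases 5 of 11 were measured, 0 passed 1.4-fold and the median was 0.07, with MKNK2 at 0.43, MKNK1 at 0.26, MAPKAPK2 at -0.19 and MAPKAPK5 at 0.07. Of 11 listed phosphatases of other families that act on MAP kinases, 0 were among the genes named here.

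**Figure D4:**
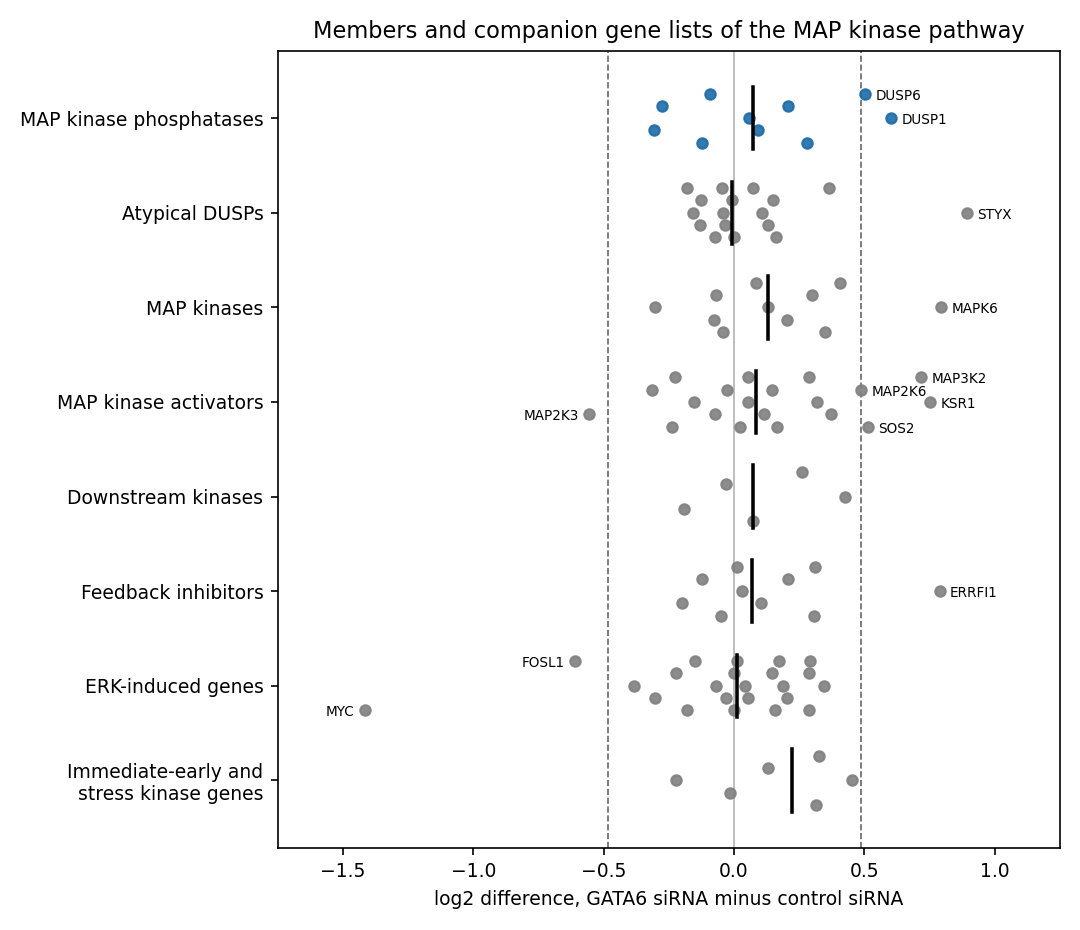
Each point is a gene and gives its log2 difference (GATA6 siRNA minus control siRNA), by list, with the vertical bar at the median of the list, dashed lines at 1.4-fold and points shifted up or down only for legibility. The 10 phosphatases (top) range from -0.31 to 0.60, STYX, MAPK6 and ERRFI1 stand alone beyond 1.4-fold in their lists, and MYC and FOSL1 lie on the other side among the ERK-induced genes.

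Markers of the cell line were checked as differences only, because levels are not held. Of 13 markers of colon epithelium 9 were measured and 3 were higher by over 1.4-fold, namely KRT20 (1.89), KRT19 (0.54) and EPCAM (0.49), with a median of 0.20. KRT18, a keratin of simple epithelia, followed with 0.36. The remaining measured markers were KRT8 (0.20), CDX1 (0.11), CDX2 (0.02), VIL1 (0.02) and GPA33 (-0.04), named after their values had been seen. With quantile normalization EPCAM did not pass 1.4-fold. KRT20 marks differentiated colon epithelium. Of 17 markers of fibroblasts, blood, vessels, muscle and nerve 4 were measured and 0 passed 1.4-fold, with differences of -0.41 for DES, -0.04 for CD14, 0.03 for VWF and 0.03 for VIM and a median of -0.01, or 0.11 with centring on ribosomal protein genes. Whether the higher epithelial markers and the higher phosphatases moved for a common reason was not tested.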

How the data were processed

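Total RNA of HT29 cells transfected with control siRNA or GATA6 siRNA was hybridized to 1-color Affymetrix arrays and evaluated in GeneSpring, per the methods of the study. Samples were grouped by the source named in the labels, with 1 array per group. The deposited table holds log values of 44629 probe sets, which were read as log2. For each probe set the control and GATA6 siRNA values sum to 0 (tolerance 1e-06), and the median of either column is 0. No source used here gives the summarization, the normalization, the log base or what the reanalysis named in the title of the control array involved. Background signal in both arrays would shrink the differences of weakly expressed genes.

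The platform annotation paired 15835 probe sets with 1 symbol, and 28794 stayed unnamed here. Probe sets of the same gene were averaged. Gene class and promoters were taken from RefSeq (GRCh38.p14). The members, the 10 companion lists and the sizes were chosen with earlier results of these data known. Every member was named. In each companion list, genes past 1.4-fold were named or, with fewer than 4 of these, the 4 farthest from 0. Other scalings, sizes and probe set rules were run as alternatives. The calculation was tested on simulated data and run in Python 3.11.15 with numpy 2.4.6 and pandas 2.3.3. The number of arrays limits the precision.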

Additional observations from a re-analysis of the deposited data

How the results depend on the processing

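No paired analysis was possible because the comparison rests on 1 array of either kind, and no replicate could be left out. The table does not show which probe sets were above background. With quantile normalization 1 member was higher by over 1.4-fold (DUSP1), in place of 2, beside 3.33% of protein-coding genes higher and 3.32% lower. These near-equal shares follow from applying the normalization to values of equal size and opposite sign. At a 1.2-fold size 2 members were lower (DUSP2 and DUSP7) and 3 higher, beside 9.39% and 11.3% of protein-coding genes. At a 2-fold size 0 were higher and 0 lower, beside 0.403% and 0.269%. With centring on ribosomal protein genes, the members had a median of 0.19 in place of 0.07, and the shares of protein-coding genes higher and lower were 6.53% and 1.60%, against 3.95% and 2.81% as deposited. Other settings were leaving out probe sets at 0, centring on the median of all named genes and taking the probe set with the largest difference. They changed no call of a member and could not have done so. No member was at 0 in either array, and the median of all named genes was already 0. Only DUSP5 had more than 1 probe set, with differences of 0.07 and 0.04. The largest probe set brought DES, a muscle marker, to -0.66 and KRT18 to 0.50, both past 1.4-fold.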
